A study of Homo sapiens with 2 samples.

Results

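The aminoacyl-tRNA synthetases, the enzymes that load amino acids onto their transfer RNAs, were followed in H9, a long-established line of human embryonic stem cells. Members were taken by gene symbol: a single amino acid letter followed by ARS, with an optional 1 or 2, or the names EPRS, FARSA and FARSB. The rule found 37 of the 20263 genes in the deposited table, 20 of them cytosolic enzymes and 17 mitochondrial ones, whose symbols end in 2. The cells received either siHNRNPA1, a small interfering RNA directed at the HNRNPA1 transcript, or the control siRNA sicontrol, for 48 h in each case. HNRNPA1 encodes hnRNP A1, an RNA-binding protein that regulates splicing, and the series is concerned with TCF3 splicing and stem cell self-renewal. Each condition had 1 library that the labels identify, so no difference below has a replicate check and no p-value is given.

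Each synthetase recognises its amino acid and the matching transfer RNAs, activates the amino acid with ATP and joins it to the end of the transfer RNA. The enzymes fall into class I and class II by the fold of their catalytic domain. In the cytosol, several synthetases sit with scaffold proteins in the multisynthetase complex, while mitochondria use a separate set, encoded in the nucleus and imported. GARS and KARS, for glycine and lysine, serve both compartments, and QARS has no nuclear-encoded mitochondrial counterpart. Transcription of many cytosolic synthetase genes is known to be raised by ATF4, the transcription factor of the integrated stress response.

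The siHNRNPA1 library had a total estimated count of 28147828 and the sicontrol library one of 26680342. In FPKM, a fragment count scaled by transcript length and library size, HNRNPA1 stood at 179.9 after siHNRNPA1 and 663 after sicontrol, or 27.1% of the control level. Genes of the 13 proteins encoded by the mitochondrial genome took 18.1% of TPM after siHNRNPA1 and 28.2% after sicontrol, and their part in folds given per library total was examined only by rescaling. Pluripotency markers were measured at 9 of 9, with a median log2 fold of -0.31 (log2 of FPKM + 1, siHNRNPA1 over sicontrol). POU5F1 was at 1355 and 864 FPKM. Of the 9 markers 4 were at least 2-fold lower, namely SOX2 (-1.10), DPPA4 (-1.54), PODXL (-1.61) and LIN28B (-1.63). That size was passed downwards by 21.9% of all measured genes. The median fold of the genes nearest in expression, GC content and transcript length was then subtracted. By that measure 3 of the 9 were at least 2-fold lower, against 8.35% of all genes: SOX2 (-1.26), DPPA4 (-1.11) and PODXL (-1.42). LIN28B stood at -0.37 and the median of the 9 at -0.10. None of the listed neural, mesoderm and endoderm or trophoblast markers reached a mean of 1 FPKM. FOXA2, an endoderm marker, had 1.52 FPKM after siHNRNPA1 and 0 after sicontrol. Of 7 fibroblast markers 3 reached that mean, THY1 (181 and 233 FPKM), COL1A1 (25.0 and 14.5) and COL1A2 (8.38 and 13.3). DCN, LUM and COL3A1 were at 0 in both libraries. In a bulk sample, fewer cells of a type and less RNA per cell cannot be told apart.

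All 37 synthetase genes were detected, and all passed the minimum of a mean of 1 FPKM. Together they held 1764 FPKM after siHNRNPA1 and 1633 in the sicontrol library, which is 0.339% and 0.348% of all FPKM. Cytosolic genes had a median of 67.2 FPKM after siHNRNPA1 and 66.6 in the sicontrol library, and mitochondrial genes one of 13.1 and 14.5. The highest level was that of AARS, the alanyl-tRNA synthetase, at 175 and 133 FPKM. The lowest was that of WARS2, the mitochondrial tryptophanyl-tRNA synthetase, at 2.93 and 2.98 FPKM. Levels thus differed more between the compartments than between the libraries.

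**Figure D1:**
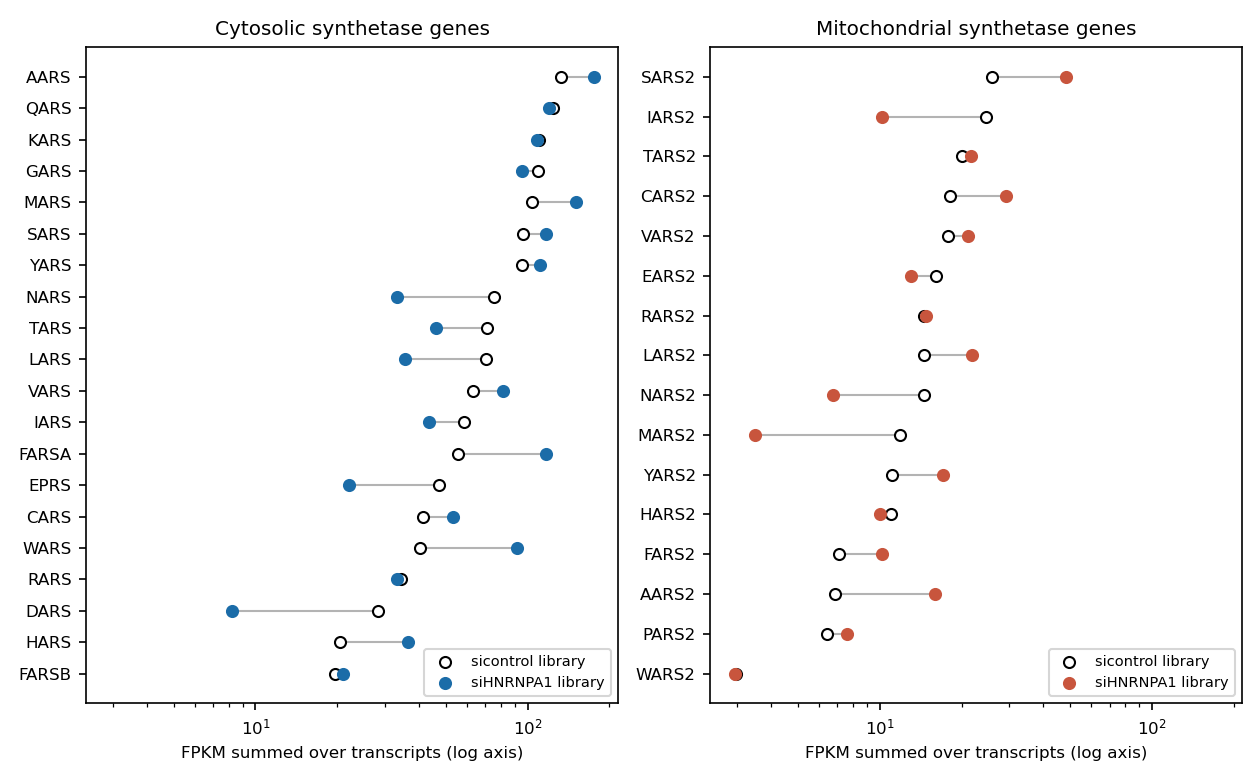
FPKM summed over the transcripts of each gene (log axis) in the sicontrol library (open circles) and the siHNRNPA1 library (filled circles), 1 library each, for 20 cytosolic genes (left) and 16 of the mitochondrial genes (right). DARS and MARS2 lie furthest to the left of their control value, and WARS, FARSA and AARS2 furthest to the right.

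Folds are log2((siHNRNPA1 + 1)/(sicontrol + 1)) of FPKM, so the change of weakly expressed genes is understated. Differences of at least 2-fold were counted. Of the 37 synthetase genes 3 were at least 2-fold higher, against 12.4% of all 11921 measured genes, and 6 were at least 2-fold lower, against 21.9%. The synthetases thus passed 2-fold no more often than other genes in either direction. Their median log2 fold was 0.097, where that of all measured genes was -0.13. From 1.5-fold on, 6 were higher and 8 lower, with 24.2% and 34.3% of all genes past that size. Rescaled over genes outside the mitochondrial genome, none of the 37 was 2-fold higher and 7 were lower, with 6.64% and 29.5% of all genes past that size.

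DARS, the aspartyl-tRNA synthetase of the multisynthetase complex (ENSG00000115866, chromosome 2, 135906677 to 135986100 on GRCh38), had the lowest fold. It had 8.21 FPKM after siHNRNPA1 (95% counting interval 7.59 to 8.87) and 28.3 in the sicontrol library (27.1 to 29.6), a log2 fold of -1.67. Of all measured genes 6.93% had a lower fold. After the median fold of the 100 genes nearest in expression, GC content and transcript length was subtracted, DARS stood at -0.87.

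NARS, the asparaginyl-tRNA synthetase (chromosome 18, 57600656 to 57622213), had 33.3 FPKM after siHNRNPA1 (32.2 to 34.4) and 75.5 in the sicontrol library (73.6 to 77.5), a log2 fold of -1.16. EPRS, a single protein that charges both glutamate and proline transfer RNAs (chromosome 1, 219968601 to 220046658), had 22.0 FPKM (21.3 to 22.7) and 47.5 (46.4 to 48.6), a log2 fold of -1.08. For EPRS the nearest genes had a median fold of -1.09, so that nothing of the difference remained after the subtraction (0.017). NARS kept -0.52. LARS, the leucyl-tRNA synthetase, came just short of 2-fold, at 35.6 and 70.1 FPKM (-0.96), and stood at 0.10 after the subtraction.

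At the other end of the cytosolic genes stood WARS and FARSA. WARS, the tryptophanyl-tRNA synthetase known for its induction by interferon (chromosome 14, 100333788 to 100376805), had 91.1 FPKM after siHNRNPA1 (89.1 to 93.2) and 40.3 in the sicontrol library (38.9 to 41.8), a log2 fold of 1.16. FARSA, the alpha subunit of phenylalanyl-tRNA synthetase (chromosome 19, 12922479 to 12934037), had 117 FPKM (114 to 120) and 55.5 (53.5 to 57.6), a log2 fold of 1.06. The subtraction left 1.31 for WARS, the highest value of any synthetase gene by that measure, and 0.29 for FARSA. By it 2 synthetase genes, WARS and FARSB, were at least 2-fold higher, against 8.11% of all genes. FARSB, which encodes the beta subunit of the same enzyme, had 21.1 and 19.6 FPKM (0.10). The FPKM ratio of the alpha to the beta subunit gene was 5.55 after siHNRNPA1 and 2.83 after sicontrol. After the subtraction the order turned, with FARSB at 1.13 and FARSA at 0.29. HARS, the histidyl-tRNA synthetase, was the next highest cytosolic gene, at 36.5 and 20.5 FPKM (0.80).

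The other 12 cytosolic genes lay between TARS, the threonyl-tRNA synthetase, at 46.0 and 70.9 FPKM (-0.61), and MARS, the methionyl-tRNA synthetase, at 151 and 104 FPKM (0.54). Within this range AARS (0.40), VARS (0.36), CARS (0.36), SARS (0.29) and YARS (0.22) were above 0, and IARS (-0.41) and GARS (-0.20) below. RARS (-0.05), QARS (-0.04) and KARS (-0.02) had nearly the same FPKM in both libraries. For KARS these were 109 and 109.9 FPKM.

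MARS2, the mitochondrial methionyl-tRNA synthetase (chromosome 2, 197705369 to 197708387), had the lowest fold of its compartment. It had 3.49 FPKM after siHNRNPA1 (3.14 to 3.88) and 11.9 in the sicontrol library (11.2 to 12.6), a log2 fold of -1.52. MARS2 was the only synthetase gene still at least 2-fold lower after the subtraction (-1.10), by which 8.35% of all genes were at least 2-fold lower. IARS2, for isoleucine (chromosome 1, 220094102 to 220148041), had 10.2 FPKM (9.64 to 10.8) and 24.6 (23.7 to 25.5), a log2 fold of -1.19. NARS2, for asparagine (chromosome 11, 78435961 to 78574874), had 6.72 FPKM (6.12 to 7.36) and 14.5 (13.6 to 15.4), a log2 fold of -1.01. After the subtraction IARS2 stood at -0.09 and NARS2 at -0.30.

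AARS2, the mitochondrial alanyl-tRNA synthetase (chromosome 6, 44299654 to 44313326), was the only gene of its compartment at least 2-fold higher. It had 16.0 FPKM after siHNRNPA1 (15.3 to 16.7) and 6.87 in the sicontrol library (6.41 to 7.36), a log2 fold of 1.11, or 0.65 after the subtraction. SARS2, for serine, followed with 48.5 and 25.9 FPKM (0.88). CARS2, for cysteine, had 29.1 and 18.1 FPKM (0.66), and EARS2, for glutamate, 13.1 and 16.1 FPKM (-0.28). WARS2 (-0.02), RARS2 (0.02) and TARS2 (0.11) were close to 0. Counting error of the log2 count ratio had a half-width from 0.03 in AARS to 0.25 in WARS2.

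The cytosolic and the mitochondrial set did not separate. The cytosolic genes had a median log2 fold of 0.040, with 2 of 20 at least 2-fold higher and 3 lower (12.4% and 21.9% of all genes). The mitochondrial genes had a median of 0.11, with 1 of 17 higher and 3 lower. The difference, cytosolic minus mitochondrial, was -0.069. It was 0.049 with GARS and KARS left out of the cytosolic set, and it was positive after the subtraction of the nearest genes, where the medians were 0.25 and -0.026.

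For 16 cytosolic and mitochondrial pairs that charge the same amino acid (EPRS stands in 2 of them), the cytosolic fold was below the mitochondrial one in 11 and above it in 5. After the subtraction it was above in 10. Both folds had the same sign in 9 pairs and opposite signs in 7. Phenylalanine, with 2 cytosolic subunit genes, was left out of the pairs. FARSA stood at 1.06, FARSB at 0.10 and FARS2 at 0.47, and at 0.29, 1.13 and 0.20 after the subtraction. Methionine showed the widest gap, with MARS at 0.54 and MARS2 at -1.52: the FPKM of MARS was 8.76 times that of MARS2 in the sicontrol library and 43.3 times in the siHNRNPA1 library. For tryptophan the ratio of WARS to WARS2 was 13.6 in the sicontrol library and 31.1 in the siHNRNPA1 library. Leucine showed the widest gap in the other direction, with LARS at -0.96 and LARS2 at 0.55, and ratios of 4.83 and 1.63. The asparagine genes had similar folds (-1.16 and -1.01), as had those for arginine (-0.05 and 0.02).

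**Figure D2:**
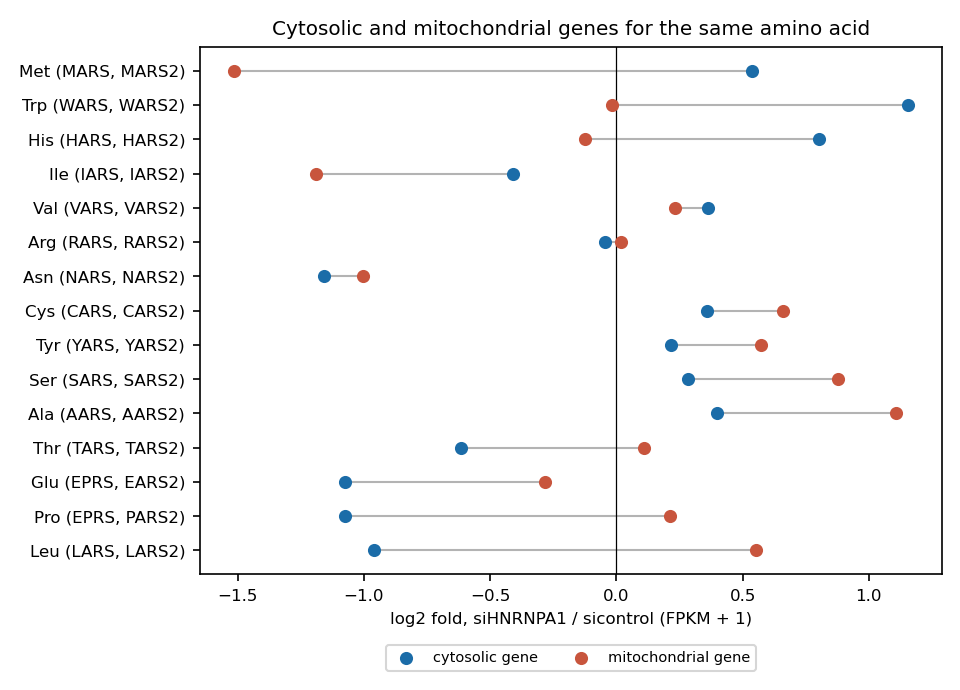
Log2 fold (FPKM + 1) of the cytosolic gene (blue) and the mitochondrial gene (red) for 15 of the pairs, 1 library per condition, ordered by the difference between them. The lines for methionine, at 0.54 and -1.52, and leucine, at -0.96 and 0.55, are the longest and run in opposite directions.

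The folds of the synthetase genes went with the base composition of their transcripts, as they did across the transcriptome. Over the 37 genes Spearman's rho between fold and GC content of the most abundant transcript was 0.69 (Pearson's r 0.68), and over 11916 measured genes it was 0.58 (0.56). The points share the same pair of libraries, and genes are not independent replicates. All genes were split into 5 equal bins by GC content. Of the 14 synthetase genes in the lower 2 bins (up to 47.4%), the highest fold was 0.097, that of FARSB. Of the 10 in the upper 2 bins (above 53.8%), the lowest was -0.04, that of QARS, whose most abundant transcript is a short one of 907 nucleotides. DARS had a GC content of 41.2%, NARS of 44.3% and IARS2 of 43.8%, against 61.6% in FARSA and 59.3% in AARS2. MARS2 (48.4%) and WARS (49.1%) lay in the middle bin, where the median fold of all genes was -0.15. The part of base composition in these differences was not tested other than by the subtraction.

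**Figure D3:**
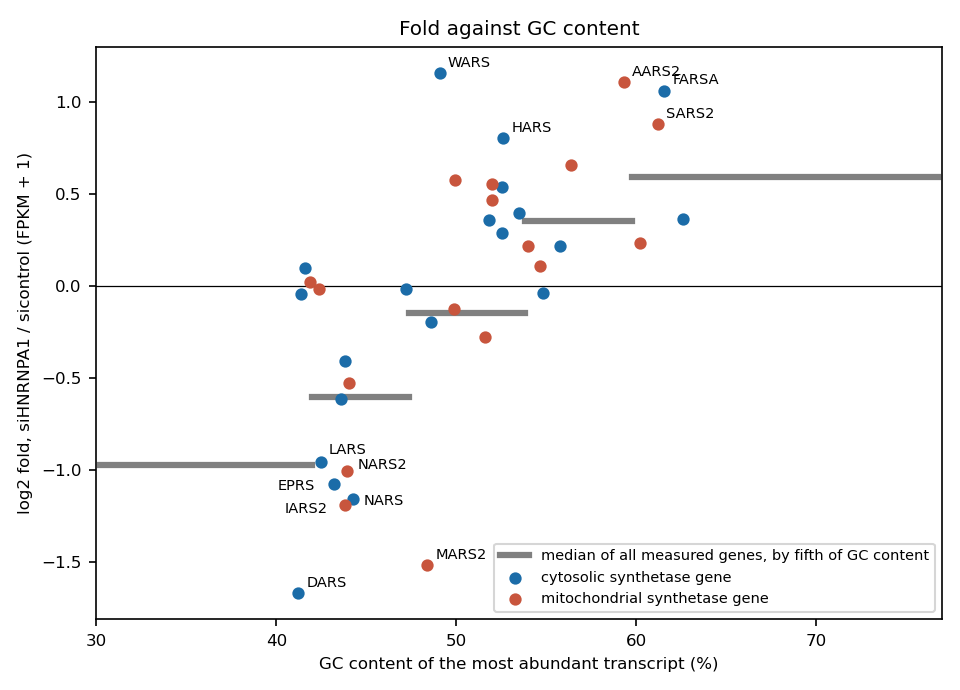
Log2 fold (FPKM + 1) of the 37 synthetase genes (blue cytosolic, red mitochondrial, 1 library per condition) against the GC content of its most abundant transcript (%), with the median fold of all measured genes in each of 5 equal bins of GC content as grey lines. The medians go from -0.98 in the lowest bin to 0.59 in the highest, and MARS2 (-1.52) and WARS (1.16) lie far from that of the middle bin (-0.15).

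By their place in the cell, 7 of the 8 synthetases of the multisynthetase complex had a fold below 0, with a median of -0.23. MARS was the exception, and 54.8% of all genes were below 0. RARS, QARS and KARS lay close to 0, and in CPM or with median ratio scaling 4 of the 8 were below 0. After the subtraction of the nearest genes 2 were. Of the 8, none passed 2-fold upwards (12.4% of all genes did), and DARS and EPRS did so downwards (21.9% of all genes did). The 12 cytosolic synthetases outside the complex had a median of 0.32, with 2 at least 2-fold higher and 1 lower. The genes of the complex had a median GC content of 43.5% and those outside it one of 52.2%, and after the subtraction the medians were 0.17 and 0.26. The 3 scaffold genes had folds of 1.15 for AIMP2 (60.2 and 26.6 FPKM), 0.20 for EEF1E1 and -0.24 for AIMP1. After the subtraction they stood at 0.67, 0.27 and 0.59. By catalytic class, the 18 class I genes had a median of 0.12 and the 18 class II genes one of 0.10. EPRS joins one catalytic domain of each class and was counted in neither.

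The table lists 238 transcripts of the synthetase genes, from 1 for each of 6 genes to 34 for WARS. The share of each transcript in its gene's FPKM was compared for the 30 genes with at least 2 transcripts and 5 FPKM in both libraries. A share differed by at least 20 percentage points in 13 of them (43.3%), 7 cytosolic and 6 mitochondrial, where 40.6% of all 5715 genes compared did. That count was thus near the background. At 10 points the count was 14 of 30 genes, fewer in proportion than the 62.5% of all genes, and the median of the largest difference per gene was 9.03 points in the synthetases and 15.4 in all genes compared. Overlapping transcripts share reads, and a transcript listed at 0 may have lost its reads to another one in the division, so these shares are less certain than the gene totals.

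**Figure D4:**
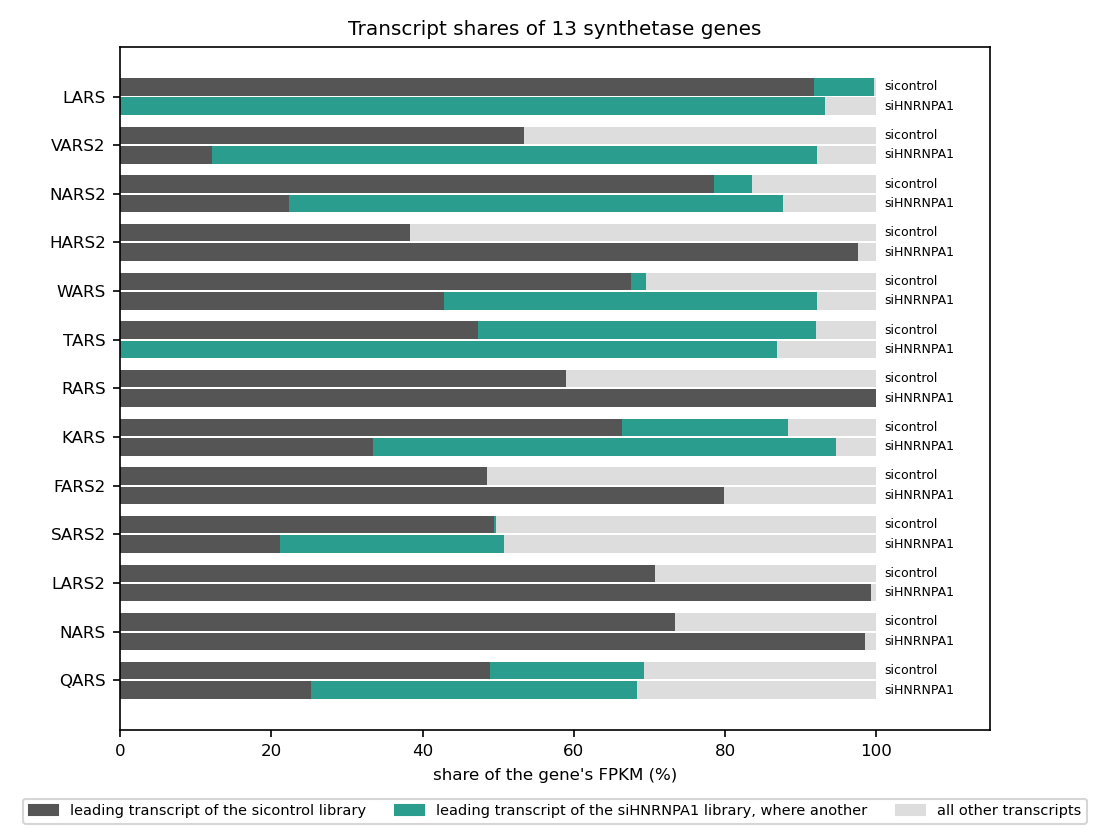
Share of each gene's FPKM (%) in its leading transcript of the sicontrol library (dark grey), in the leading transcript of the siHNRNPA1 library where that is another one (green) and in all other transcripts (light grey), 1 library per condition, for the 13 synthetase genes with a difference of at least 20 points. In LARS the dark part goes from 91.8% to 0%, and in RARS and HARS2 the same leading transcript takes nearly the whole gene in the siHNRNPA1 library.

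LARS had the largest difference. The transcript LARS-212, annotated with 1122 codons, had 64.4 FPKM in the sicontrol library and was listed at 0 in the siHNRNPA1 library, where LARS-202, with 1176 codons, took 93.2% of the gene (33.1 FPKM, against 5.54 in the sicontrol library). LARS-212 lacks 1 internal exon of LARS-202, of 119 nucleotides, and has other ends. In RARS, the arginyl-tRNA synthetase, the transcript RARS-204, annotated as a target of nonsense-mediated decay (the pathway that degrades messenger RNAs with an early stop codon), had 14.1 FPKM in the sicontrol library and was listed at 0 in the siHNRNPA1 library. It lacks an exon of 109 nucleotides that the coding transcript RARS-201 (20.3 FPKM after sicontrol and 33.3 after siHNRNPA1) holds. The decay transcript TARS-209 had 33.5 FPKM in the sicontrol library, the largest share of TARS there (47.3%), and was listed at 0 in the siHNRNPA1 library. TARS-201, the coding transcript, had 31.8 FPKM in the sicontrol library and 39.96 after siHNRNPA1, and holds an exon of 124 nucleotides that TARS-209 lacks.

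KARS went the other way. Its total hardly differed, but the coding transcript KARS-201, with 597 codons, had 72.9 FPKM in the sicontrol library and 36.3 in the siHNRNPA1 library. The decay transcript KARS-204, which lacks an exon of 166 nucleotides, had 24.2 and 66.5 FPKM, or 22.0% and 61.3% of the gene. KARS-204 also holds an exon of 180 nucleotides that KARS-201 lacks (chr16:75644283-75644462). The mitochondrial form of the enzyme is made by including an early exon, and the coding transcript with this exon, KARS-202 (625 codons), had 5.70 FPKM in the sicontrol library and 3.16 in the siHNRNPA1 library. All transcripts with the 180-nucleotide exon made up 31.9% and 65.4% of the gene. In LARS2 the transcripts that hold an exon of 129 nucleotides made up 85.1% of the gene in the sicontrol library and 100% in the siHNRNPA1 library. The largest difference of a single transcript share in LARS2 was 28.6 points, more than that of the transcripts with this exon.

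These 5 exons are shown because they are coding exons of an abundant transcript that another transcript of the gene lacks (they were chosen after the values had been seen). Each is read from the GENCODE release 29 transcript that holds it, 5′ to 3′ on the sense strand, with the exon in capitals and 15 bases of each neighbouring exon in lower case. The LARS exon is at chr5:146177547-146177665 on the minus strand, the RARS exon at chr5:168493894-168494002 and the TARS exon at chr5:33453289-33453412, both on the plus strand, the KARS exon at chr16:75640184-75640349 on the minus strand and the LARS2 exon at chr3:45400245-45400373 on the plus strand.
LARS: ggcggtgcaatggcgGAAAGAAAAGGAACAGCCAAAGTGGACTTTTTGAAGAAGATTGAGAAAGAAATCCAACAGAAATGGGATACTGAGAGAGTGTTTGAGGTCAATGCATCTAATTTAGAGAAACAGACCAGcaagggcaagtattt
RARS: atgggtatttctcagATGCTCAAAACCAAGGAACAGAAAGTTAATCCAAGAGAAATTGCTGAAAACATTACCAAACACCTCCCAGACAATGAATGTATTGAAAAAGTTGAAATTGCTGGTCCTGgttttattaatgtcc
TARS: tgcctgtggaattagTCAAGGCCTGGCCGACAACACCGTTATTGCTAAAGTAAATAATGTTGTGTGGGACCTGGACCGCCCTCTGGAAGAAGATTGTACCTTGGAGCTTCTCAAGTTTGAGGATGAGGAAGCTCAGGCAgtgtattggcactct
KARS: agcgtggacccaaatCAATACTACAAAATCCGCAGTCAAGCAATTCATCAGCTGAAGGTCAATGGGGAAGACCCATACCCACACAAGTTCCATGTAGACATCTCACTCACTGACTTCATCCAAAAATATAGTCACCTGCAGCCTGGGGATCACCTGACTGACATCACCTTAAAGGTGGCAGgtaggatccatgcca
LARS2: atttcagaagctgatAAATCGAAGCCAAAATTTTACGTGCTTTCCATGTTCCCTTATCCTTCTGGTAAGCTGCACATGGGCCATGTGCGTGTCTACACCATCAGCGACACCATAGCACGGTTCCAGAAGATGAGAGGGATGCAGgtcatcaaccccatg
The LARS, RARS, TARS and KARS exons have lengths that are no multiple of 3, and the LARS2 exon has one that is. Transcripts that hold the exon made up 100% of LARS, 100% of RARS and 98.2% of TARS in the siHNRNPA1 library, against 8.23%, 59.0% and 48.6% in the sicontrol library. For the KARS exon the shares were 36.9% and 75.5%.

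Other genes had different shares of transcripts that differ at their ends, in their exons or in both. WARS-232 had 45.0 FPKM after siHNRNPA1 and 0.824 in the sicontrol library, while WARS-201 had 39.0 and 27.2 FPKM. Both are annotated with 430 codons and differ in their 5′ exons and at their ends, and most of the difference in WARS lay in WARS-232. In NARS2 the 477-codon transcript NARS2-201 had 1.497 FPKM after siHNRNPA1 and 11.4 in the sicontrol library, and NARS2-204, with another first exon and 250 codons, had 4.398 and 0.730. VARS2-212 (923 codons) had 17.0 FPKM after siHNRNPA1 and was listed at 0 in the sicontrol library, where the 326-codon VARS2-203 led with 9.55 FPKM. HARS2-201, the full transcript of 506 codons, had 9.81 and 4.23 FPKM, and the shorter HARS2-204 and HARS2-206 were listed at 0 in the siHNRNPA1 library and at 3.09 and 1.54 FPKM in the sicontrol library. In NARS, the decay transcript NARS-203 was listed at 0 in the siHNRNPA1 library and at 14.1 FPKM in the sicontrol library. FARS2, for mitochondrial phenylalanine, has 2 main transcripts of 451 codons each, with FARS2-201 at 79.9% of the gene after siHNRNPA1 and 48.6% after sicontrol, and FARS2-202 at 15.2% and 37.2%. QARS, the glutaminyl-tRNA synthetase, had the short QARS-245 at 25.2% after siHNRNPA1 and 48.9% after sicontrol, and QARS-209 at 43.2% and 20.4%.

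SARS2 differed by an exon junction. SARS2-201 had 10.2 FPKM after siHNRNPA1 and 12.8 in the sicontrol library. SARS2-202, with the same number of codons (518) but with both sides of 1 intron shifted, had 14.3 and 0.0804 FPKM. The 2 junctions, from the GENCODE transcripts with the differing bases in capitals, show how small the distinction is.
SARS2-201: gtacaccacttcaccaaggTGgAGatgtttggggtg
SARS2-202: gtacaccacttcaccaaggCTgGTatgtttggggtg
Only 4 bases differ in this window, and SARS2 also shares 1492 exonic bases on the same strand with the gene AC011455.2, which had 5.01 FPKM after siHNRNPA1 and 0.0196 in the sicontrol library. The values of SARS2 are therefore uncertain.

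Decay transcripts as a group showed no common direction among the synthetases. They held 13.8% of all synthetase FPKM after siHNRNPA1 and 12.8% in the sicontrol library, against 4.11% and 3.54% over all transcripts of the table. The pooled share rested on few genes. After siHNRNPA1, MARS (98.3 FPKM), KARS (67.1) and FARSA (46.1) held most of the 243 FPKM of decay transcripts. In the sicontrol library MARS (72.5) and TARS (37.9) held the most of 209 FPKM. Of 20 synthetase genes with an annotated decay transcript, their share was lower in 9, higher in 9 and 0 in both libraries in 2. The shares that were lower by the most were those of TARS (12.2% and 53.4%), RARS (0% and 41.0%) and NARS (0.371% and 21.6%). That of KARS was higher by the most (61.8% and 22.8%), followed by FARSA (39.4% and 31.3%). In MARS, decay transcripts made up most of the gene in both libraries (65.0% and 69.9%).

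For several genes FPKM and counts gave different folds. HARS2 had a log2 fold of -0.12 in FPKM and of 0.54 in CPM, the counts scaled only by library total, LARS of -0.96 and -0.69, TARS of -0.61 and -0.27, NARS of -1.16 and -0.88, and VARS2 of 0.23 and 0.60. DARS (-1.67 and -1.71), MARS2 (-1.52 and -1.66) and WARS (1.16 and 1.22) were alike on both scales. Several synthetase genes also overlap a gene on the opposite strand, and no source used here says whether counting was stranded. The exons of MARS share 355 bases with DDIT3, which had 30.2 FPKM after siHNRNPA1 and 1.55 in the sicontrol library. HARS and HARS2 overlap each other, AARS2 overlaps TMEM151B (11.5 and 5.03 FPKM), WARS overlaps WDR25 (9.33 and 4.21 FPKM) and YARS overlaps S100PBP (6.32 and 16.2 FPKM). The part of these overlaps in the folds was not tested.

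Synthetase genes are among the known targets of ATF4, so the genes of the integrated stress response were read beside them. Of 28 measured stress response targets 10 were past 2-fold upwards and 3 downwards, and the median log2 fold was 0.43, beside 12.4% and 21.9% of all genes. After the subtraction 5 were higher and 1 lower, with 8.11% and 8.35% of all genes past that size. DDIT3, which encodes the stress transcription factor CHOP, stood at 3.62, and the pseudokinase gene TRIB3, at 31.7 and 5.24 FPKM, at 2.39. DDIT4, an inhibitor of mTORC1 signalling, had a fold of 1.96, and SLC3A2, the heavy chain of amino acid transporters, of 1.71. ATF4 itself had 458 and 426 FPKM (0.11), and ASNS, the asparagine synthetase and a classic ATF4 target, 102 and 110.0 FPKM (-0.11). The estimated counts of ATF4 were further apart, at 28123 and 19015, so its fold depends on the measure used. XPOT, the exporter of transfer RNAs from the nucleus, had 15.9 and 35.7 FPKM (-1.12), and 0.065 after the subtraction. Among 6 genes of the eIF2 kinases and their partners, none passed 2-fold upwards and 3 did so downwards: EIF2AK4, which encodes the sensor of uncharged transfer RNA GCN2 (11.7 and 39.3 FPKM, -1.67), EIF2AK2 (-1.44), the sensor of double-stranded RNA, and EIF2AK3 (-1.43), that of unfolded proteins. EIF2AK1, the heme-regulated kinase, had a fold of -0.57. After the subtraction the 3 stood at -0.81, 0.07 and -0.53.

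The element that ATF4 binds together with C/EBP factors was searched in RefSeq promoters (GRCh38.p14, 250 bases before to 50 after each start). The letters were TGATGNAA on both strands. Of the 37 synthetase genes 30 matched a promoter entry, and 8 of these held the element, 7 cytosolic and 1 mitochondrial, where 3.62% of all 35116 promoter windows did (8 of 39 windows of the synthetases). Those not matched included DARS, LARS, VARS, YARS, AARS2 and VARS2. The sites are shown with 10 bases on either side, 5′ to 3′ on the strand of the gene, the element in capitals.
AARS: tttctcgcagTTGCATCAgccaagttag
CARS: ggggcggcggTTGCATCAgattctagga
GARS: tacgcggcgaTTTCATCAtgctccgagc
IARS: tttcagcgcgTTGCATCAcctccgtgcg
MARS: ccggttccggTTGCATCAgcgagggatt
NARS: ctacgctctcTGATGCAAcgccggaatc
TARS: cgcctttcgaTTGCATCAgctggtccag
YARS2: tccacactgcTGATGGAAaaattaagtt
They lie at chr16:70289676-70289703 (AARS), chr11:3057408-3057435 (CARS), chr7:30594835-30594862 (GARS), chr9:92293693-92293720 (IARS), chr12:57488054-57488081 (MARS), chr18:57621805-57621832 (NARS), chr5:33440957-33440984 (TARS) and chr12:32756077-32756104 (YARS2), on the plus strand for GARS, MARS and TARS and on the minus strand for the others. In 6 of the 7 cytosolic genes the variable base gives the sequence TGATGCAA, which 0.866% of all windows hold. The folds of these genes pointed both ways. MARS (0.54), AARS (0.40), CARS (0.36) and YARS2 (0.57) were above 0, and NARS (-1.16), TARS (-0.61), IARS (-0.41) and GARS (-0.20) below, of which TARS, IARS and GARS were above 0 after the subtraction. The 7 cytosolic genes with the element had a median fold of -0.20 before the subtraction. The other 9 with a promoter entry had one of 0.097. After the subtraction the 7 lay between -0.52 (NARS, the only one below 0) and 0.65 (IARS). The other 9 then lay between -0.85 (QARS) and 1.31 (WARS), so the sets overlapped. A match is a description of the sequence, and binding was not measured.

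Beside the other genes of translation, the synthetases as a whole had a lower median fold than the ribosomal proteins. Of all measured genes 12.4% passed 2-fold upwards and 21.9% downwards, or 8.11% and 8.35% after the subtraction of the nearest genes. Of 82 measured cytosolic ribosomal protein genes 34 passed 2-fold upwards and none downwards, with a median log2 fold of 0.88. Of 78 mitochondrial ones 31 were higher and 3 lower (0.75). Those transcripts are short, with a median length of 738.5 and 1230 nucleotides against 2729 for the synthetases. After subtraction of the nearest genes the medians were 0.20, 0.44 and 0.12 for the cytosolic ribosomal proteins, the mitochondrial ribosomal proteins and the synthetases. With the sets apart, the cytosolic synthetases stood at 0.25, above the cytosolic ribosomal proteins, and the mitochondrial synthetases at -0.026. Of 7 cytosolic elongation factor genes 2 were at least 2-fold higher, EEF1D (278 and 83.4 FPKM, 1.73) and EIF5A (1.29), and none was lower (median 0.72). EEF1B2 (0.85) and EEF2 (0.72) followed. After the subtraction none of the 7 was 2-fold higher, with EEF1D at 0.71, EIF5A at 0.66 and a median of 0.13. The 13 mitochondrial translation factors had 2 genes at least 2-fold lower, the elongation factors GFM2 (4.47 and 12.6 FPKM, -1.31) and GFM1 (-1.13), none higher, and a median of 0.18. The initiation factors MTIF3 (-0.95) and MTIF2 (-0.87) came next. After the subtraction GFM2 stood at -0.50 and GFM1 at 0.00073, and 3 of the 13 were 2-fold higher and none lower. Of 9 genes of transfer RNA processing and export 2 were at least 2-fold higher, HSD17B10 (151 and 51.3 FPKM, 1.54), a subunit of mitochondrial RNase P, and ELAC1 (1.19), and XPOT was lower, followed by KIAA0391, the nuclease subunit of that RNase P (-0.91). After the subtraction HSD17B10 stood at 0.75, ELAC1 at 1.63 and KIAA0391 at 0.42. None of the 7 synthetase-like and transfer RNA quality genes passed 2-fold, with AARSD1, an alanyl-tRNA editing protein, at 0.92, PTRHD1 at 0.44, PTRH2 at 0.37 and TARSL2 at -0.28.

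**Figure D5:**
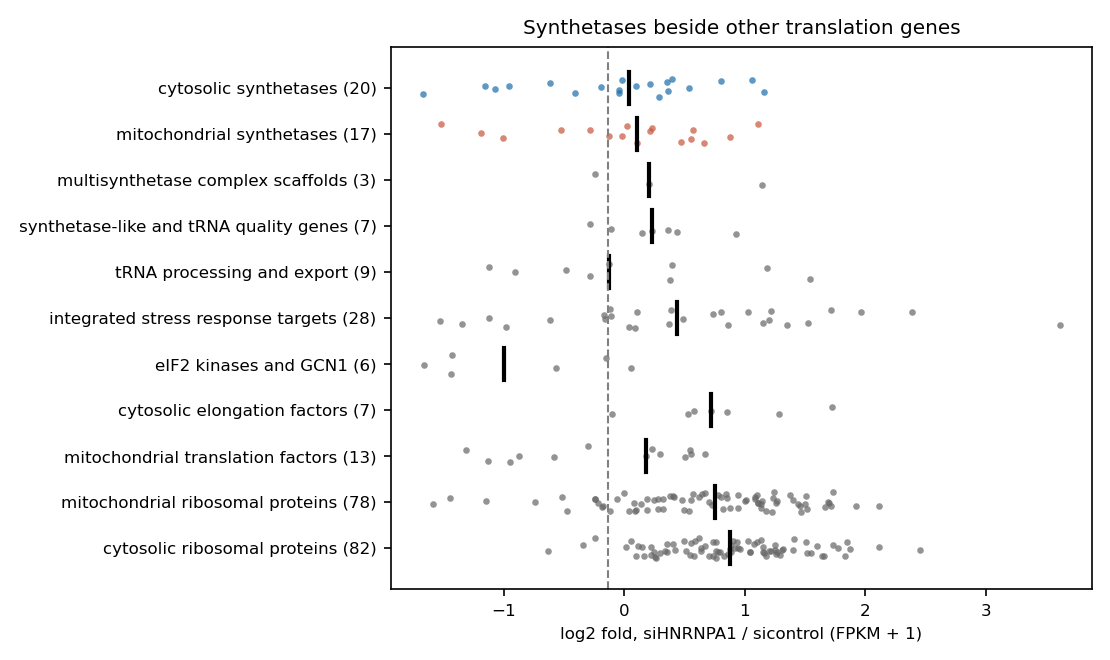
Log2 fold (FPKM + 1) of each measured gene in the synthetase sets and in the other lists, with the number of genes in brackets, black bars at the list medians and a dashed line at the median of all measured genes (-0.13), 1 library per condition. Both synthetase sets spread over both sides of 0, while most ribosomal protein genes lie to the right.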

How the data were processed

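RNA was isolated with RNeasy columns and made into Illumina mRNA libraries, per the labels' protocols. The deposited table gives, per the file headers, a count, a TPM and an FPKM for each of 95139 transcripts. The counts were deposited by the authors as whole numbers and were treated as estimated counts, since transcripts of 1 gene share reads. TPM and FPKM are used as the authors deposited them. No source used here names the aligner, the quantification program or the annotation. As builds, the submitters' processing notes list GRCm38 and mm10, which are mouse builds, whereas the identifiers are human and 228 of the 238 synthetase transcripts have the same position in GENCODE release 29 (GRCh38). Another 6 per-sample columns fit the labels of neither library and stayed out. They may hold replicates, but the labels used here do not say what they are.

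FPKM was summed per gene, and genes with a mean of at least 1 FPKM were kept (11921). Folds used a pseudocount of 1 FPKM. For the subtraction, each gene was set against its 100 nearest genes in log2 expression, GC content and log2 length of its most abundant transcript. Counting intervals (95%) are Poisson intervals for levels and Clopper-Pearson intervals for ratios, both exact. They treat each estimated count as 1 independent read and cover counting error only. Scripts (Python 3.11.15, scipy 1.17.1, matplotlib 3.10.9) were tested on simulated data. Gene symbols are those of the table, as AARS for the current AARS1. Named are the synthetase genes (1 of them is counted but not reported by name here), HNRNPA1, the members past 20 points in transcript shares and, of each other list except the ribosomal proteins, the 4 measured genes with the largest absolute fold. Marker genes, ATF4, ASNS, XPOT and the overlapping genes were added after their values were seen. The members and lists were chosen with earlier results of these data known.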

Additional observations from a re-analysis of the deposited data

How the results depend on the processing

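With 1 library per condition, no alternative speaks to the spread between cultures. No paired analysis was possible because each condition has 1 library. Of the 37 synthetase genes, 16 kept one sign under the main setting and the 10 alternatives that give a fold per gene, 10 of them above 0 and 6 below. EPRS was the only gene past 2-fold whose sign turned, to 0.017 after subtraction of the nearest genes. With a pseudocount of 5 FPKM 2 genes were at least 2-fold lower (7.94% of all genes), and after the subtraction 1 (8.35%). With the most abundant transcript only, 7 were at least 2-fold higher (17.5% of all genes). Scaled over genes outside the mitochondrial genome, an alternative chosen after seeing the data, none was 2-fold higher (6.64% of all genes). The medians of the cytosolic and the mitochondrial set moved with the scale: 0.19 and 0.26 with median ratio scaling, -0.11 and -0.036 in TPM, 0.15 and 0.25 in CPM, -0.29 and -0.22 scaled outside the mitochondrial genome, 0.22 and 0.019 with the most abundant transcript, and 0.25 and -0.026 after the subtraction. Without GARS and KARS the cytosolic median was 0.16. The difference between the medians, cytosolic minus mitochondrial, was 0.20 with the most abundant transcript, 0.27 after the subtraction and 0.049 without GARS and KARS, against -0.069 as reported. The median of all measured genes was -0.13 as reported, 0.00053 with median ratio scaling, -0.28 in TPM and -0.42 outside the mitochondrial genome, so a fold near 0 has no settled sign. Why the values moved was not tested. At a difference of 10 percentage points 14 genes differed in transcript shares, and at 20 points by TPM 13.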
